A study of Homo sapiens with 6 samples.

Results

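The 81 genes described here encode the subunits of the oxidative phosphorylation complexes that are made from nuclear DNA, together with the electron carrier cytochrome c. They were taken from the 27887 rows of the deposited expression table by their names, and each was placed in a complex by its name. This gave 38 subunits of complex I, 4 of complex II, 9 of complex III, 12 of complex IV, 17 of complex V and CYCS. Of the 120 rows whose names fitted, 22 were numbered copies of a gene, 9 were complex I assembly factors, 6 were antisense or divergent transcripts and 2 were readthrough transcripts, and these were left out. RNA was sequenced from KYSE450 cells, an established line of human esophageal squamous cell carcinoma, grown in RPMI1640 medium with fetal bovine serum. The 6 libraries form 2 groups of 3: cells infected with an shHMGB2 virus, whose genotype is given as HMGB2 knockdown, and cells given a mock virus infection, whose genotype is given as WT. Both groups therefore carry a virus. The labels do not say which hairpin was used, whether the cells were clones or a pool, or whether the replicates were separate cultures, and p-values therefore cover only how these 6 libraries vary, part of which can be technical. The series states as its purpose a search for genes that control cholesterol metabolism; HMGB2 is a high-mobility group protein that binds and bends DNA.

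Oxidative phosphorylation takes place in the inner mitochondrial membrane. Complex I accepts electrons from NADH and complex II from succinate; both pass them through ubiquinone to complex III, cytochrome c carries them on to complex IV, which reduces oxygen, and complex V uses the proton gradient built by complexes I, III and IV to make ATP. Most subunits are encoded in the nucleus and imported, while a small set of core subunits of complexes I, III, IV and V is encoded in mitochondrial DNA. NRF1, the ETS factor GABPA and YY1 are known activators of nuclear subunit genes.

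HMGB2 itself stood at 22.1, 24.5 and 27.8 FPKM (fragments scaled to transcript length and to the mapped total) in shHMGB2 libraries, against 115.8, 111.4 and 108.6 FPKM in mock libraries, so that shHMGB2 libraries held 22.1% of the mock mean (log2 fold change -2.14, SE 0.084, limma adjusted p = 0.000113). Summed FPKM ran from 740684 to 829437 per library; read depth is not given by these values. Pearson's r between libraries over log2(FPKM + 1) was 0.985 to 0.989 within groups and 0.978 to 0.987 between them. The squamous epithelial markers KRT5, KRT14, KRT6A, TP63, SFN, DSG3 and SOX2 averaged 50.5 to 3440 FPKM. Among 12 markers of other cell types in the table, the fibroblast gene LUM alone averaged over 1 FPKM, with 3.03 FPKM, and PTPRC, COL1A2, DCN and PECAM1 stayed at or below 0.03 FPKM in every library. Summed over the 12, these markers came to 4.92 to 5.14 FPKM in shHMGB2 libraries and 3.72 to 4.42 FPKM in mock libraries, while the 7 squamous markers summed to 5449 to 6165 FPKM in shHMGB2 libraries and 6320 to 6469 FPKM in mock libraries. Of the 7, KRT14 (log2 fold change -0.55), KRT6A (-0.54) and SFN (-0.50) were lower at limma adjusted p under 0.05, and SOX2 (0.42), named after its values were seen, was higher. The part of these markers in the results below was not tested. The 3 genes used to check the labelled set, NDUFS3 of complex I, SDHA of complex II and CYC1 of complex III, were all expressed in all 6 libraries.

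Start sites of subunit genes are shown first, since known activators of this gene set bind there. RefSeq promoters (GRCh38.p14, 250 bases before to 50 after the start) were matched for 68 of the 81 genes. The sequences give 120 bases on the plus strand just upstream of the start for 4 genes: NDUFS3 (chr11:47578954-47579073) and UQCRQ (chr5:132866522-132866641), which are among the subunits with the smallest p below mock, and SDHA (chr5:218200-218319) and SDHD (chr11:112086753-112086872), which belong to complex II, whose 3 tested subunits had log2 fold changes above 0. Capitals mark matches to the NRF1 motif, GCGCA and GCGC with any 1 base between them, or to the ETS motif CCGGAAG, on either strand.
NDUFS3: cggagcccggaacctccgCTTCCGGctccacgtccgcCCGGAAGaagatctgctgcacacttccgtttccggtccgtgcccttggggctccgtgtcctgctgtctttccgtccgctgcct
UQCRQ: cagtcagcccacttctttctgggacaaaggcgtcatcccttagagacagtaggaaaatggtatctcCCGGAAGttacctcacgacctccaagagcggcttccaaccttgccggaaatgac
SDHA: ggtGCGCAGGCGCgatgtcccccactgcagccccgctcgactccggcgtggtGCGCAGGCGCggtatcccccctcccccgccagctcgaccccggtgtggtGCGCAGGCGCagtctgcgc
SDHD: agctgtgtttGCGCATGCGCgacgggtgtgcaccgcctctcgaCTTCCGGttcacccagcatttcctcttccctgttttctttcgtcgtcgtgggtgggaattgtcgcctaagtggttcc

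Over the whole windows, searched on both strands and with each motif counted apart from the others, NRF1 letters were found in 16 of 68 subunit promoters (23.5%), against 12.4% of 9658 promoters of tested genes and 6.28% of all 27305 promoters. The ETS letters were in 20 (29.4%), against 20.8% of promoters of tested genes and 10.7% of all promoters. YY1 letters (AAGATGGCG) were in 7 (10.3%), against 4.22% and 1.85%. At least 1 of the 3 motifs was in 36 subunit promoters (52.9%), against 33.2% of tested and 16.96% of all promoters. Subunits with and without a match had nearly the same difference between the groups: the median log2 fold change was -0.08 over the 35 tested with any match and -0.07 over the 31 without. A match is a run of letters and no measured binding site.

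The subunit genes were expressed at high levels in both groups. Of the 81, 79 averaged at least 1 FPKM and were tested; the exceptions were COX6B2, a testis isoform of complex IV, and the row named SDHB, which is taken up with the numbered copies. The median level over all 81 was 147 FPKM in shHMGB2 libraries and 151 FPKM in mock libraries. Over all 6 libraries, the median FPKM was 134 for complex I, 127 for complex II, 75.4 for complex III, 294 for complex IV and 235 for complex V. The complex II value includes the named SDHB row, with a mean of 0.053 FPKM. The highest subunit was ATP5MF, a membrane subunit of complex V, with 1744, 1439 and 1740 FPKM in shHMGB2 libraries against 1777, 1472 and 1407 FPKM in mock libraries. It was followed by ATP5F1B, the catalytic beta subunit, with 1413 ± 17.01 FPKM in shHMGB2 libraries and 1374 ± 49.0 FPKM in mock libraries (SD, n = 3 each). The 81 named rows together held 2.70 ± 0.043% of summed FPKM in shHMGB2 libraries and 2.73 ± 0.10% in mock libraries (SD, n = 3 each). Numbered copies of these genes were not counted in these shares.

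**Figure D1:**
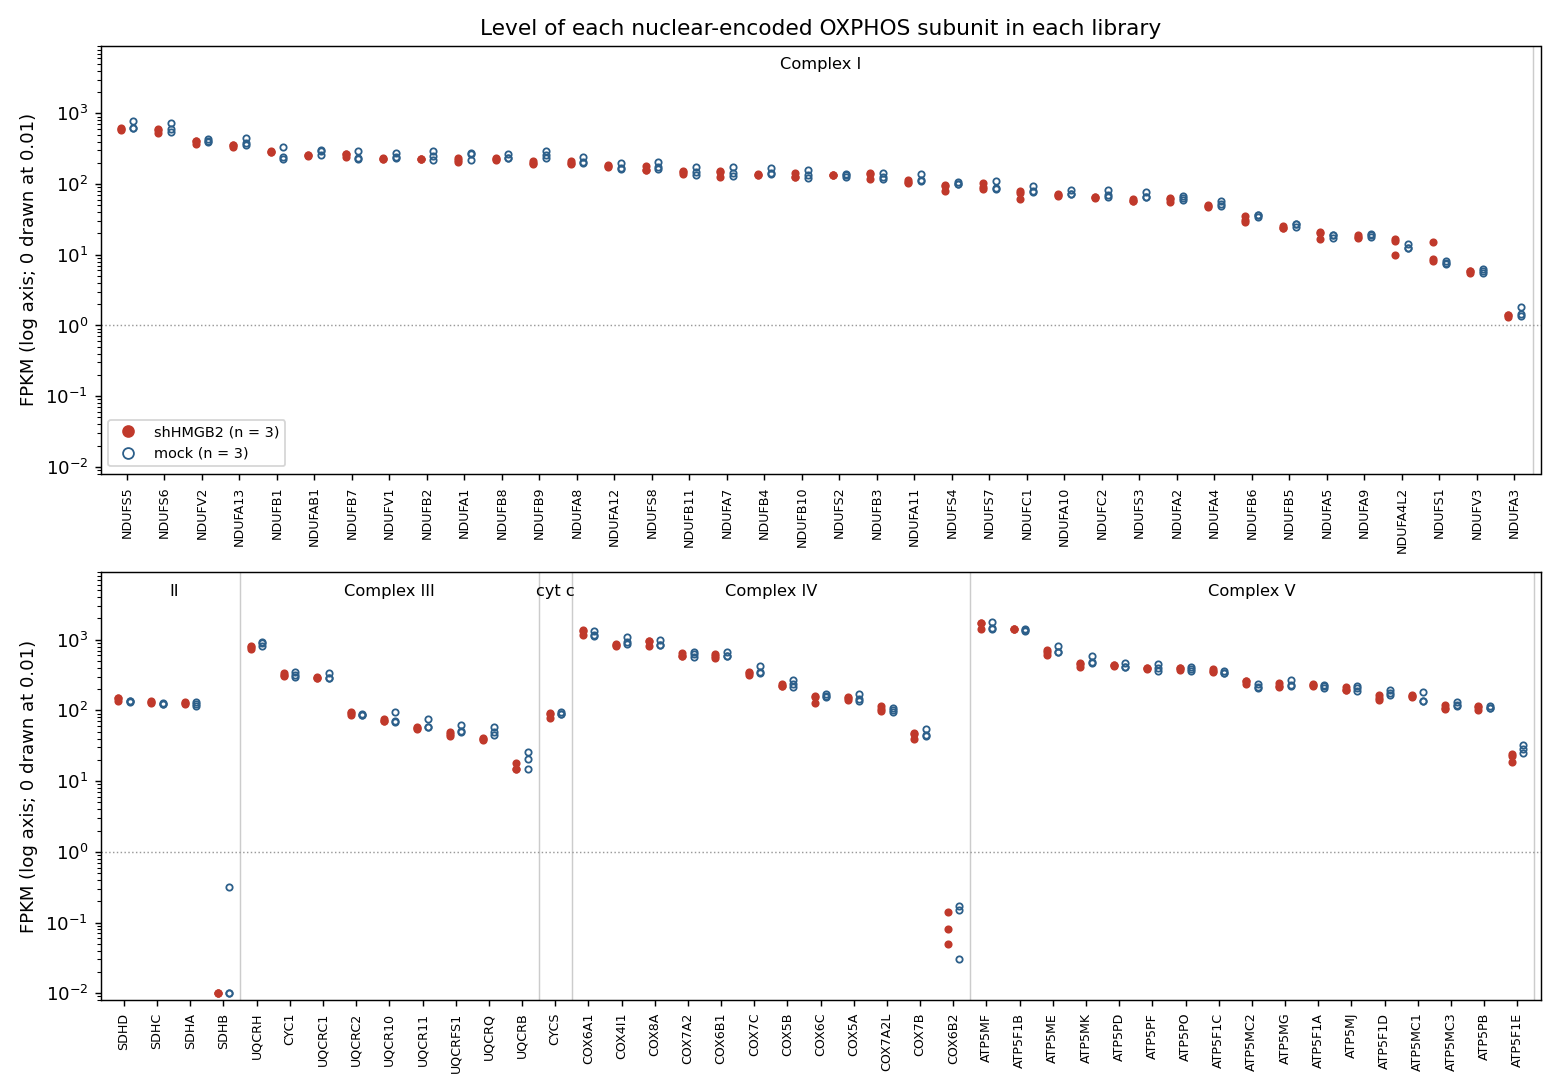
FPKM of each nuclear-encoded subunit (log10 axis), arranged by complex, with shHMGB2 and mock libraries drawn as filled and open points; a value of 0 is drawn at 0.01, and the dotted line marks the minimum mean of 1 FPKM. The highest subunits are ATP5MF of complex V, ATP5F1B of complex V and COX6A1 of complex IV, and SDHB and COX6B2 lie under the line.

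No subunit passed the test between shHMGB2 and mock cells. In limma on log2(FPKM + 1), 0 of 79 subunits were higher and 0 were lower at adjusted p under 0.05, beside 3.3% of all 13409 tested genes higher and 3.45% lower (6.75% in either direction). At unadjusted p under 0.05, 1 subunit was higher, where 16.8% of all genes were, and 6 were lower, where 11.1% of all genes were (27.9% in either direction). The higher one was ATP5MC2, and the lower ones were NDUFB9, NDUFS3, UQCRQ, UQCRFS1, ATP5F1E and ATP5F1D. Log2 fold changes ran from -0.37 to 0.38 with a median of -0.08, beside a median of 0.04 over all genes; 56 of the 79 (70.9%) lay below 0, as did 43% of all genes. After quantile normalization 54.4% of subunits lay below 0, beside 47.6% of all genes. The 95% interval lay within 0.5 log2 units of 0 for 73 of the 79 (92.4%), beside 77.1% of all genes. Values in the 3 shHMGB2 libraries lay wholly above those in the mock libraries for 3 subunits, NDUFS1, SDHC and SDHD (3.80%), beside 21.6% of all genes, and wholly below for 10 (12.7%), beside 14% of all genes.

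**Figure D2:**
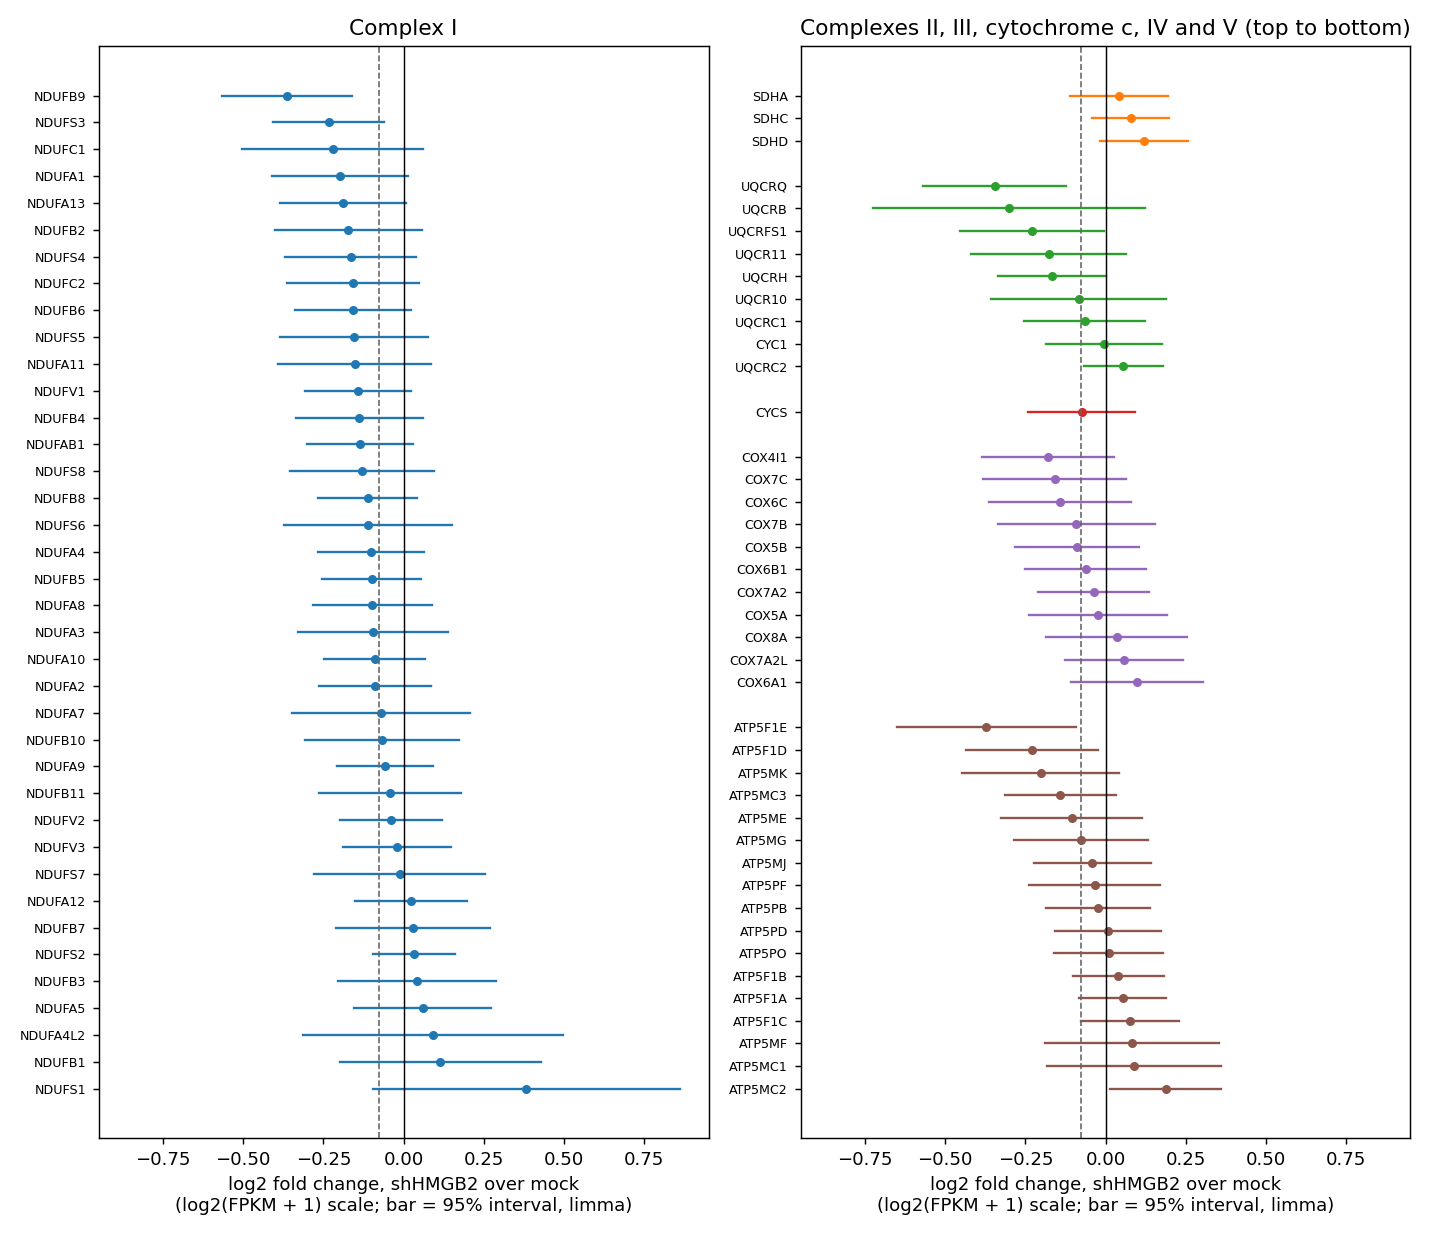
Log2 fold change of each tested subunit, shHMGB2 over mock on the log2(FPKM + 1) scale, with its 95% interval, grouped by complex; the solid line marks 0 and the dashed line the median of all subunits, -0.08. All points but that of NDUFS1 lie between -0.37 and 0.19, the median of complex III is -0.17, and the 3 tested subunits of complex II all sit above 0.

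The authors' deposited table, made with a model of its own, gave a different count: 16 of the 78 subunits with a deposited adjusted p (20.5%) were lower at adjusted p under 0.05 and 0 were higher, beside 9.73% of all genes lower and 6.18% higher. Its median log2 fold change over the subunits was -0.19, beside -0.02 over all genes. Of the 78 subunits, 72 lay below 0, as did 6822 of the 12723 tested genes with a deposited adjusted p. The 16 were 7 subunits of complex I, 3 of complex III, 2 of complex IV and 4 of complex V; none belonged to complex II. Among them were genes described below without a limma call: NDUFB9, NDUFS3, NDUFA13, NDUFS5, UQCRQ, UQCRFS1, UQCRH, COX4I1, COX7C, ATP5F1E and ATP5F1D.

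Mock replicate 1 stood apart for these genes, and the lean below 0 moved with it. It held the highest value of the 3 mock libraries for 73 of 79 subunits (92.4%), beside 36.1% of all genes, and the highest of all 6 libraries for 65 (82.3%), beside 23.3% of all genes. Against the mean of each gene over the libraries, the subunits' median deviation was -0.08, -0.04 and -0.01 log2 units in shHMGB2 replicates 1, 2 and 3, against 0.18, -0.01 and -0.06 in mock replicates 1, 2 and 3. Over all genes mock replicate 1 deviated by -0.03. By complex its median deviation was 0.20 for complex I, -0.03 for complex II, 0.32 for complex III, 0.17 for complex IV and 0.16 for complex V. The complex II value rests on 3 tested subunits, of which SDHA was highest in mock replicate 1 and SDHC and SDHD were not. SDHB, left out of it, had 258.0 FPKM there with its numbered copy added, against 220.5 and 217.3 FPKM in mock replicates 2 and 3. Without mock replicate 1, the subunits' median log2 fold change was 0.0057, 38 of 79 (48.1%) lay below 0, as did 43.3% of all genes, and 0 were lower and 2 higher at adjusted p under 0.05. These 2, named after their values were seen, were ATP5MC1, which encodes the membrane ring subunit c of complex V, and NDUFB1, an accessory subunit of complex I. With all 6 libraries, 3.3% of all genes were called higher and 3.45% lower. The range of these calls with 1 library left out is given in the last section. What set mock replicate 1 apart was not tested.

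**Figure D3:**
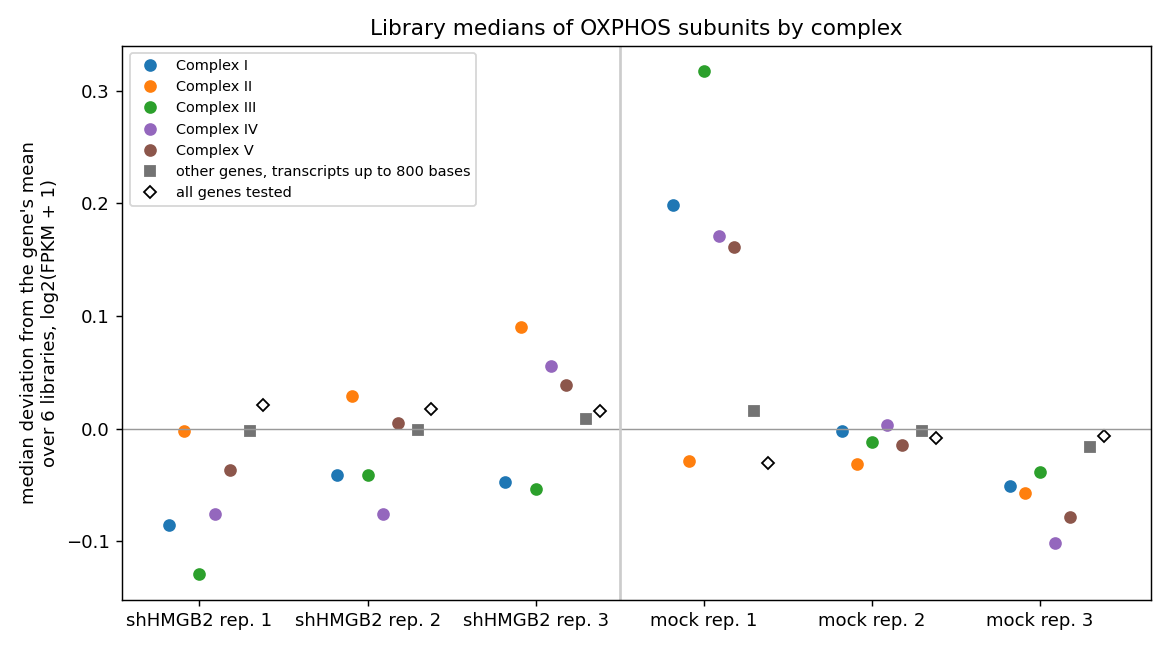
Median deviation of the subunits of each complex from each gene's mean over the 6 libraries, in log2 units, for shHMGB2 replicates and mock replicates, beside other genes with transcripts of up to 800 bases (squares) and all genes tested (diamonds). Mock replicate 1 stands at 0.16 to 0.32 for complexes I, III, IV and V and at -0.03 for complex II. The complex II points rest on its 3 tested subunits, without SDHB. In the other libraries the 5 complexes stay between -0.13 and 0.09.

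The subunit transcripts are short, with a median length of 712 bases in GENCODE 29, against 1784 bases over the 11073 tested genes with a length (82.6% of those tested). Among genes of up to 800 bases, the 51 subunits had a median log2 fold change of -0.09 with 76.5% below 0, whereas the other 1660 genes had a median of -0.0005 with 50.2% below 0. In mock replicate 1 those other short genes deviated by 0.016 log2 units, against 0.18 for the subunits. In the same library other genes of 800 to 1600 bases deviated by 0.040 log2 units, and other genes over 1600 bases by -0.091. Between 800 and 1600 bases the 18 subunits and the other 3179 genes both had a median log2 fold change of -0.01. Between 1600 and 3200 bases the 9 subunits had a median of -0.02 with 66.7% below 0, whereas the other 3670 genes had a median of 0.04 with 41.3% below 0.

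Complex I couples electron transfer from NADH to proton pumping and has the most subunits. All 38 were tested; 0 passed in either direction, 30 had a log2 fold change below 0, and the median was -0.10, or -0.03 without mock replicate 1. The 7 nuclear-encoded core subunits, which include those with the flavin and the iron-sulfur clusters, had a median of -0.04 with 5 below 0, and the 31 others a median of -0.10 with 25 below 0. The smallest p of all subunits was that of NDUFB9, an accessory subunit of the membrane arm (gene on chromosome 8). It stood at 199.3, 192.2 and 214.3 FPKM in shHMGB2 libraries, against 289.9, 256.9 and 235.3 FPKM in mock libraries. Every shHMGB2 library lay below every mock library, and mock replicate 1 was the highest. Its log2 fold change was -0.36 (SE 0.086, 95% interval -0.56 to -0.16), with limma adjusted p = 0.0508, just over the threshold. The adjusted p was 0.0676 without mock replicate 1, 0.0375 without mock replicate 3 and 0.0416 with its numbered copy added, and it ranged from 0.00461 to 0.160 over all alternatives.

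NDUFS3, a core subunit of the arm that reaches into the matrix, had 56.9, 60.5 and 58.1 FPKM in shHMGB2 libraries, against 76.4, 65.3 and 65.7 FPKM in mock libraries. The groups did not overlap; the log2 fold change was -0.23 (95% interval -0.41 to -0.06, limma adjusted p = 0.0983). NDUFA13, also known as GRIM-19, had 358.6, 352.4 and 334.5 FPKM in shHMGB2 libraries, against 446.8, 386.6 and 362.6 FPKM in mock libraries. This was again a separation without a call, at -0.19 log2 units (limma adjusted p = 0.193). NDUFS5, an accessory subunit and the highest of complex I, had 589.7, 620.2 and 602.4 FPKM in shHMGB2 libraries, against 785.4, 631.0 and 612.8 FPKM in mock libraries. Its groups overlapped, and mock replicate 1 alone stood clearly above the rest (log2 fold change -0.15, limma adjusted p = 0.342). The lowest named row was that of NDUFA3, at 1.39, 1.31 and 1.41 FPKM in shHMGB2 libraries, against 1.81, 1.44 and 1.36 FPKM in mock libraries. In both groups this gene is divided over 10 rows. Summed, these averaged 13.8 FPKM in shHMGB2 libraries and 15.4 FPKM in mock libraries.

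NDUFA4 carries a complex I name but is now placed with complex IV, and RefSeq lists it as COXFA4. It had 47.8, 49.4 and 51.2 FPKM in shHMGB2 libraries, against 57.8, 52.8 and 49.2 FPKM in mock libraries. Its paralogue NDUFA4L2, which is induced by hypoxia, had 16.9, 15.8 and 10.0 FPKM in shHMGB2 libraries, against 12.6, 12.4 and 14.1 FPKM in mock libraries. In both genes the groups overlapped, with log2 fold changes of -0.10 and 0.09. Both were kept in the complex I counts and medians, which follow gene names.

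Complex II, succinate dehydrogenase, also works in the citric acid cycle and has no subunit encoded in mitochondrial DNA. It was the complex whose 3 tested subunits all had a log2 fold change above 0, with a median of 0.08; none passed. SDHD, a membrane anchor, had 136.2, 148.4 and 151.5 FPKM in shHMGB2 libraries, against 134.0, 132.8 and 133.9 FPKM in mock libraries. The groups did not overlap, at 0.12 log2 units (95% interval -0.02 to 0.26, limma adjusted p = 0.223). The other anchor, SDHC, had 127.8, 130.6 and 136.3 FPKM in shHMGB2 libraries, against 125.4, 125.2 and 122.9 FPKM in mock libraries, likewise without overlap (log2 fold change 0.08, limma adjusted p = 0.353). SDHA, the flavoprotein that binds succinate, had 131.7, 127.0 and 123.9 FPKM in shHMGB2 libraries, against 132.2, 124.4 and 115.2 FPKM in mock libraries; the groups overlapped (log2 fold change 0.04, 95% interval -0.11 to 0.20, limma adjusted p = 0.694), and without mock replicate 3 the log2 fold change was -0.0083. Whether complex II differed from the other complexes was not tested.

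Complex III passes electrons from ubiquinol to cytochrome c. Of its 9 subunits, 8 lay below 0 (88.9%), beside 43% of all genes. Wholly below mock were 3 (33.3%), beside 14% of all genes. None passed, and the median log2 fold change was -0.17. This median was -0.049 after quantile normalization, against -0.059 for complex I, and -0.010 with library weights, against -0.048 for complex I. UQCRQ, a small subunit near the ubiquinone site, had 38.4, 41.2 and 39.4 FPKM in shHMGB2 libraries, against 58.1, 50.1 and 44.6 FPKM in mock libraries. All shHMGB2 values lay below all mock values, which themselves spread widely. The log2 fold change was -0.35 (SE 0.095, 95% interval -0.57 to -0.12) with limma adjusted p = 0.0724; it was 0.0888 without mock replicate 1 and 0.0379 without mock replicate 3. UQCRFS1, the Rieske iron-sulfur protein, had 43.0, 49.0 and 46.0 FPKM in shHMGB2 libraries, against 62.3, 50.2 and 50.4 FPKM in mock libraries (log2 fold change -0.23, limma adjusted p = 0.171). UQCRH, the hinge protein that helps cytochrome c1 meet cytochrome c and the highest of the complex, had 736.7, 785.7 and 813.6 FPKM in shHMGB2 libraries, against 918.0, 891.0 and 813.7 FPKM in mock libraries. The groups touched without crossing (log2 fold change -0.17, limma adjusted p = 0.183).

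CYC1, the heme-bearing cytochrome c1, was almost level, with 335.3, 312.4 and 305.8 FPKM in shHMGB2 libraries, against 347.2, 318.5 and 292.6 FPKM in mock libraries. Its log2 fold change was -0.005 (95% interval -0.18 to 0.17, limma adjusted p = 0.974), and 0.085 after quantile normalization. UQCRB, the lowest of the complex, had 15.1, 18.3 and 14.8 FPKM in shHMGB2 libraries, against 25.9, 15.0 and 20.3 FPKM in mock libraries, an interval too wide to place it (log2 fold change -0.30, 95% interval -0.72 to 0.12). Without mock replicate 1, the median over complex III was -0.055. Cytochrome c itself, CYCS, had 79.2, 92.6 and 88.1 FPKM in shHMGB2 libraries, against 89.95, 88.02 and 95.24 FPKM in mock libraries, with overlap (log2 fold change -0.07, limma adjusted p = 0.530).

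Complex IV, cytochrome c oxidase, has several subunits with tissue isoforms. Of its 12 genes 11 were tested; 0 passed, 8 lay below 0, and the median log2 fold change was -0.06, but 0.047 after quantile normalization and 0.0075 without mock replicate 1. COX4I1, the common isoform of subunit 4, had 849.5, 828.0 and 866.7 FPKM in shHMGB2 libraries, against 1088, 930.7 and 874.8 FPKM in mock libraries. The groups did not overlap, and mock replicate 1 was again the highest (log2 fold change -0.18, 95% interval -0.38 to 0.03, limma adjusted p = 0.226). COX7C had 313.7, 344.4 and 342.9 FPKM in shHMGB2 libraries, against 429.3, 353.2 and 340.2 FPKM in mock libraries (log2 fold change -0.16, limma adjusted p = 0.315). COX6C differed by -0.14 log2 units (limma adjusted p = 0.363). Both had overlapping groups. COX6A1, the isoform of subunit 6a found outside heart and muscle, was the highest of the complex, at 1342, 1186 and 1360 FPKM in shHMGB2 libraries, against 1329, 1171 and 1133 FPKM in mock libraries. It lay on the other side of 0, with overlap (log2 fold change 0.10, limma adjusted p = 0.495).

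The isoforms of complex IV differed widely in level. COX6B1 averaged 591 ± 34.7 FPKM in shHMGB2 libraries and 617 ± 53.4 FPKM in mock libraries (SD, n = 3 each), whereas its testis counterpart COX6B2 was at 0.08, 0.05 and 0.14 FPKM in shHMGB2 libraries and 0.03, 0.15 and 0.17 FPKM in mock libraries. COX7A2 averaged 609 ± 29.2 FPKM in shHMGB2 libraries and 626 ± 45.9 FPKM in mock libraries (SD, n = 3 each). COX7A2L, a related protein that acts in respiratory supercomplexes, averaged 106 ± 9.08 FPKM in shHMGB2 libraries and 102 ± 6.43 FPKM in mock libraries (SD, n = 3 each). COX7B averaged 44.5 ± 4.25 and COX8A 913 ± 80.4 FPKM in shHMGB2 libraries, against 47.5 ± 5.94 for COX7B and 891 ± 81.3 FPKM for COX8A in mock libraries (SD, n = 3 each). In each of these genes the groups overlapped. COX4I2, COX6A2, COX7A1, COX7B2, COX8C and UQCRHL had no row of that name in the deposited table and could not be analysed.

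Complex V, the ATP synthase, joins a catalytic head to a membrane rotor. All 17 genes were tested; 0 passed, 9 lay below 0, and the median log2 fold change was -0.02, but 0.046 after quantile normalization and 0.05 without mock replicate 1. The subunits with the smallest p lay on both sides of 0. ATP5F1E, the epsilon subunit of the central stalk and the lowest of the complex, had 18.6, 24.2 and 22.9 FPKM in shHMGB2 libraries, against 32.2, 28.4 and 25.2 FPKM in mock libraries. Its groups did not overlap (log2 fold change -0.37, 95% interval -0.65 to -0.09, limma adjusted p = 0.102). ATP5F1D, the delta subunit of the same stalk, had 166.9, 150.7 and 138.5 FPKM in shHMGB2 libraries, against 193.0, 177.1 and 164.4 FPKM in mock libraries; the highest shHMGB2 library reached into the mock range (log2 fold change -0.23, limma adjusted p = 0.146).

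The proteolipid subunit c of the rotor is made from 3 genes that encode the same mature protein with different targeting sequences. ATP5MC2, the most expressed, had 260.3, 233.4 and 257.6 FPKM in shHMGB2 libraries, against 238.2, 210.2 and 211.6 FPKM in mock libraries. It was the subunit at unadjusted p under 0.05 on the higher side, and its groups overlapped (log2 fold change 0.19, 95% interval 0.01 to 0.36, limma adjusted p = 0.153). ATP5MC1 had 163.0, 156.1 and 162.5 FPKM in shHMGB2 libraries, against 184.3, 136.1 and 136.8 FPKM in mock libraries. Here mock replicate 1 lay above and the other mock libraries below every shHMGB2 library; the log2 fold change was 0.09 (limma adjusted p = 0.644), and 0.23 (limma adjusted p = 0.0422) without mock replicate 1. ATP5MC3 averaged 111 ± 7.13 FPKM in shHMGB2 libraries and 122 ± 8.67 FPKM in mock libraries (SD, n = 3 each), a log2 fold change of -0.14.

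Some values above depend on how the deposited table divides reads between rows. In 10 genes the table holds numbered copies beside or in place of the named row. NDUFS1, the core subunit with the most iron-sulfur clusters, had the highest log2 fold change of all subunits, 0.38, from 8.16, 8.66 and 15.33 FPKM in shHMGB2 libraries, against 7.34, 7.63 and 8.06 FPKM in mock libraries. Its copy had 8.16, 8.66 and 2.09 FPKM in shHMGB2 libraries, against the same 7.34, 7.63 and 8.06 FPKM in mock libraries, so the high value of shHMGB2 replicate 3 was matched by a low one in the copy. The sums were 16.3, 17.3 and 17.4 FPKM in shHMGB2 libraries, against 14.7, 15.3 and 16.1 FPKM in mock libraries, a log2 fold change of 0.14 (limma adjusted p = 0.187).

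SDHB, the iron-sulfur subunit of complex II, was at 0 in all libraries but mock replicate 1, which had 0.32 FPKM, while its copy carried the reads. With both added, SDHB had 214.8, 225.3 and 234.9 FPKM in shHMGB2 libraries, against 258.0, 220.5 and 217.3 FPKM in mock libraries (log2 fold change -0.04, limma adjusted p = 0.763), so that the fourth complex II subunit lay on the other side of 0. NDUFA6, an accessory subunit of complex I, appeared in the table only as a copy, with 83.7, 88.4 and 92.5 FPKM in shHMGB2 libraries, against 101.4, 84.6 and 82.0 FPKM in mock libraries (log2 fold change -0.01, limma adjusted p = 0.932). With copies added, NDUFB9 was the 1 subunit past the threshold, at -0.37 log2 units.

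**Figure D4:**
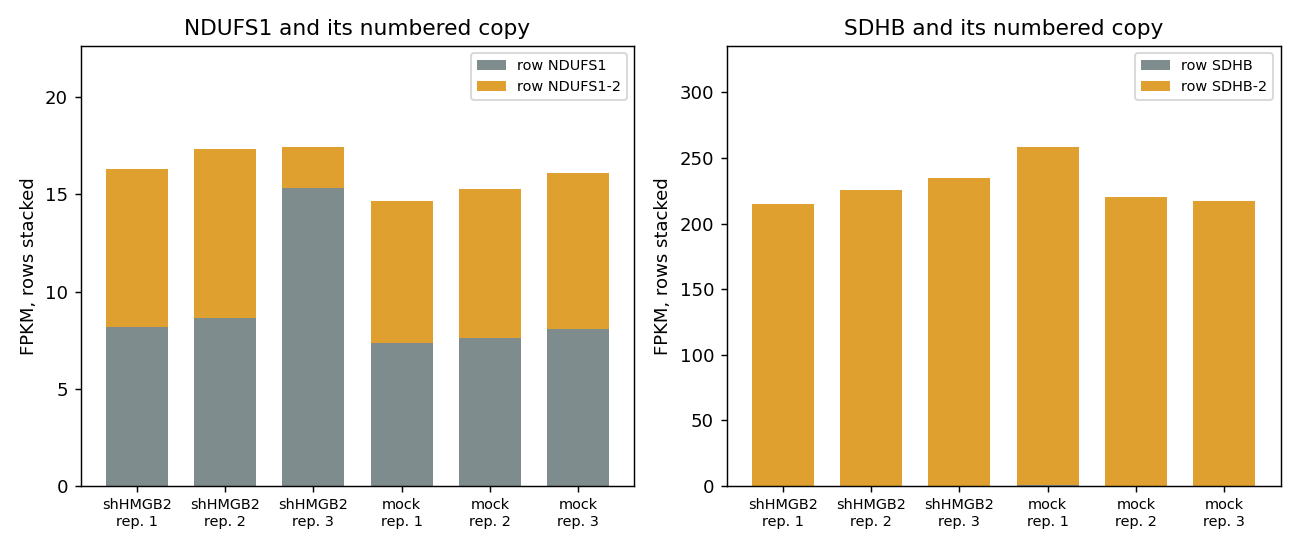
FPKM by library of the named row and, stacked on it, of its numbered copy, with shHMGB2 libraries left of mock libraries, for NDUFS1 and SDHB. In NDUFS1 the named row of shHMGB2 replicate 3 is at 15.33 and its copy at 2.09 FPKM, while the stacked sums lie between 14.7 and 17.4 FPKM in all 6 libraries; in SDHB the copy holds nearly the whole bar.

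The 13 subunits encoded in mitochondrial DNA had a median of 4852 FPKM, against 149 FPKM for the 81 nuclear genes. They ran from 720 FPKM for ND6 to 18343 FPKM for ATP8. The ranges overlapped, as the highest nuclear subunit, ATP5MF, averaged 1597 FPKM. They held 10.9 ± 0.89% of summed FPKM in shHMGB2 libraries and 10.6 ± 0.17% in mock libraries (SD, n = 3 each). None passed (0 higher, 0 lower), beside 3.3% of all genes higher and 3.45% lower. At unadjusted p under 0.05, 0 were higher, where 16.8% of all genes were, and 1 was lower, where 11.1% were. The authors' deposited table had 0 higher and 4 of 13 lower (30.8%), beside 6.18% of all genes higher and 9.73% lower. In the limma fit the median log2 fold change of the 13 was -0.06. Their median deviation in shHMGB2 replicates 1, 2 and 3 was 0.08, -0.19 and -0.003 log2 units. In mock replicates 1, 2 and 3 it was 0.18, -0.0004 and -0.06, against 0.18 in mock replicate 1 for the nuclear subunits. ND6, a complex I subunit, had 709.8, 601.1 and 573.0 FPKM in shHMGB2 libraries, against 983.9, 670.4 and 784.0 FPKM in mock libraries, with overlap (log2 fold change -0.36, limma adjusted p = 0.161). It lies on the strand opposite to the other protein genes of mitochondrial DNA, and whether reads were counted by strand is not given.

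Assembly factors, which build the complexes without staying in them, held 2 calls, beside 3.3% of all genes higher and 3.45% lower. Of 16 factors of complex I, 0 were higher and 1 was lower, with a median log2 fold change of -0.04. The gene that fell, NDUFAF8, had 114.1, 115.8 and 107.4 FPKM in shHMGB2 libraries, against 156.7, 150.7 and 137.0 FPKM in mock libraries (log2 fold change -0.39, SE 0.067, limma adjusted p = 0.0179). It works with NDUFAF5 early in assembly. Of 25 factors of complex IV, 1 was higher and 0 were lower, with a median of -0.05. COX20, a chaperone of the mitochondrially encoded subunit COX2, rose, with 28.9, 30.8 and 30.8 FPKM in shHMGB2 libraries, against 22.9, 26.0 and 24.9 FPKM in mock libraries (log2 fold change 0.29, SE 0.066, limma adjusted p = 0.0460). Without 1 library the calls were often lost: NDUFAF8 without shHMGB2 replicate 1, 2 or 3 or mock replicate 2, and COX20 without any of the 6. With no filter on low values the adjusted p was 0.0504 for NDUFAF8 and 0.0892 for COX20, and COX20 was also over the threshold with median-of-ratios scaling (limma adjusted p = 0.0606) and with empirical Bayes without trend (0.0605). The authors' deposited table had 0 higher in both lists, where 6.18% of all genes were, with 2 of 16 (12.5%) lower for complex I and 4 of 25 (16.0%) for complex IV, where 9.73% of all genes were.

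Neither the 10 factors of complexes II and III nor the 5 assembly and inhibitor genes of complex V held a call. Among all genes 3.3% were higher and 3.45% lower. UQCC1, a complex III factor, had the smallest p of its list (log2 fold change 0.17, limma adjusted p = 0.103). The median was -0.09 for complexes II and III and -0.02 for complex V, where ATPAF1, a chaperone of the catalytic head, had limma adjusted p = 0.340.

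Genes around the chain gave no call in 3 lists, beside 3.3% of all genes higher and 3.45% lower. None of 17 regulators of mitochondrial biogenesis and mitochondrial DNA expression passed (median log2 fold change -0.04); ESRRA, a nuclear receptor that drives respiratory genes, had the smallest p of the list, with 55.1, 55.7 and 50.9 FPKM in shHMGB2 libraries against 64.2, 61.6 and 61.4 FPKM in mock libraries (log2 fold change -0.21, limma adjusted p = 0.0731). None of 18 genes of pyruvate dehydrogenase and the citric acid cycle passed (median -0.0054), with IDH3B, a subunit of isocitrate dehydrogenase, at -0.27 log2 units (limma adjusted p = 0.0749). Among 7 carriers 0 passed (median -0.07), with VDAC2, a channel of the outer membrane, at -0.20 log2 units (limma adjusted p = 0.114). The authors' deposited table had 0 genes higher in these 3 lists and in the assembly lists of complexes II, III and V, beside 6.18% of all genes. Lower in it were 3 of 17 regulators (17.6%), 1 of 18 genes of the citric acid cycle list (5.56%), 1 of 7 carriers (14.3%), 1 of 10 factors of complexes II and III (10.0%) and 0 of 5 genes of complex V, beside 9.73% of all genes.

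Proteins of the mitochondrial ribosome, which translates the mitochondrially encoded subunits, lay mostly below 0. Of 78 genes, 0 rose and 4 fell, beside 3.45% lower among all genes; the median log2 fold change was -0.12, with 69 below 0. The 3 largest of these changes were in MRPS9 (-0.54, limma adjusted p = 0.0135), MRPL33 (-0.36, limma adjusted p = 0.0126) and MRPL45 (-0.34, limma adjusted p = 0.0206); the fourth gene, MRPL57, was named after its values were seen. MRPS9 lost its call without mock replicate 2, MRPL33 without that library or any of the 3 shHMGB2 replicates, and MRPL45 without any library but mock replicate 1. MRPS9, of the small ribosomal subunit, had 61.6, 74.7 and 73.8 FPKM in shHMGB2 libraries, against 106.4, 100.3 and 98.3 FPKM in mock libraries. All shHMGB2 libraries lay below all mock libraries for 29 of the 78 genes (37.2%), beside 14% of all genes. The authors' deposited table had 26 of 78 lower (33.3%), beside 9.73% of all genes. In mock replicate 1 the median deviation of this list was 0.18 log2 units as well.

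**Figure D5:**
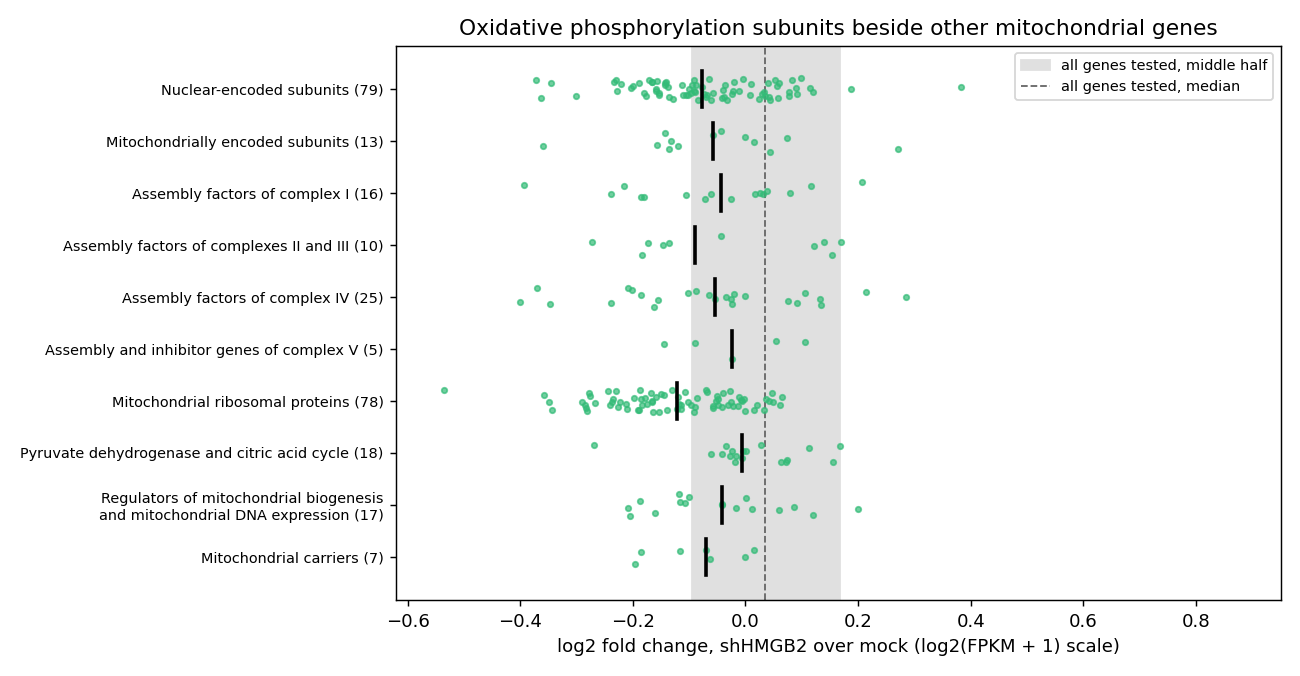
Log2 fold change, shHMGB2 over mock on the log2(FPKM + 1) scale, of every tested gene of the nuclear subunits and of 9 other mitochondrial lists, with a bar at each list's median and the middle part of all tested genes shaded. List medians lie between -0.12 for the mitochondrial ribosome and -0.0054 for the citric acid cycle, against 0.04 for all genes.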

How the data were processed

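The authors deposited 1 table with FPKM per library (2 decimals, per the file headers), a normalized signal per group, a log2 fold change, a p-value and an adjusted p. Bowtie2 2.2.5, RSEM 1.2.12 and hg38 are listed in the submitters' processing notes, with no role or order; the gene annotation and read depth are not given in the sources used here. FPKM is relative, so a gene's value also depends on the others, and rows that share reads divide them.

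The fit used all 6 libraries and the 13409 genes averaging 1 FPKM or more, in limma 3.58.1 (R 4.3.3) on log2(FPKM + 1), with group as the only term, empirical Bayes with trend, 2-sided tests, and p-values adjusted by Benjamini-Hochberg across those genes. A pseudocount of 1 understates fold changes of low genes. The fit was tested on simulated data. Members and lists were chosen with earlier results of these data known. Named genes were NDUFS3, SDHA, CYC1, HMGB2, isoform families, the 3 smallest p, the highest and the lowest level in each complex and, from each other list, the largest 3 changes past the threshold or else the smallest p; others are named as such. Numbered copies were recognised by their names. Lengths came from GENCODE 29 (GRCh38) and promoters from RefSeq (GRCh38.p14). Alternatives covered pseudocount, filter, scaling, library weights, threshold, replicate block and omission of each library.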

Additional observations from a re-analysis of the deposited data

How the results depend on the processing

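The 0 higher and 0 lower subunits became 0 and 1 with a mean of at least 5 FPKM, 0 and 1 with median-of-ratios scaling, 1 and 1 after quantile normalization, 4 and 9 with library weights, 0 and 3 at an adjusted p of 0.10, and 0 to 2 and 0 to 2 when 1 library was left out. Summing numbered copies gave 1 lower and removing a trend with transcript length 3 lower; both were chosen after seeing the data. All genes higher and lower (442 and 463) were 167 and 245 with no filter, 2436 and 1758 with weights, 1156 and 878 at 0.10, 746 and 866 without the length trend, and 97 to 449 and 193 to 446 with 1 library left out. The 6 calls in other mitochondrial lists became 3 with no filter, 10 at 5 FPKM, 48 with weights, 19 at 0.10, 11 with copies summed, 18 without the length trend and 0 to 6 with 1 library left out. Medians moved to 0.040 (median-of-ratios) and 0.15 (quantile) in complex II, 0.047 (quantile) in complex IV and -0.010 (weights) in complex III. Subunits below 0 were 78.5% after median-of-ratios scaling, beside 49.6% of all genes, and 54.4% after quantile normalization, beside 47.6%.

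With the replicate number as a block, subunits stayed at 0 and 0, and all genes gave 138 higher and 234 lower. The other lists then gave 2 calls. Same-numbered libraries did not deviate together (r = -0.012, -0.038 and -0.096). The labels do not say whether the numbers pair the libraries, and these values do not settle it. Of the 79 subunits, 56 lay below 0 in the fit reported, 38 without mock replicate 1 and 43 after quantile normalization. Among the subunits named by rule, 9 changed sign under at least 1 alternative. With 1 library left out, their log2 fold changes ranged from -0.066 to 0.057 for CYC1, -0.012 to 0.11 for COX8A, -0.10 to 0.0082 for COX6B1, -0.096 to 0.0075 for COX7A2, -0.15 to 0.0074 for COX7B, -0.0086 to 0.11 for COX7A2L, -0.042 to 0.31 for NDUFA4L2 and -0.0083 to 0.090 for SDHA. They were 0.085 for CYC1, 0.047 for COX6B1 and 0.062 for COX7A2 after quantile normalization, -0.0025 for COX8A with median-of-ratios scaling, 0.015 for COX7B, -0.0051 for COX7A2L and 0.057 for UQCRB with library weights, and 0.0028 for CYC1 without the length trend. The causes were not tested. With 3 libraries a group and no read depth, small differences cannot be resolved.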
